A study of Mus musculus with 59 samples.

Results

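The 10 genes described here encode the proteins that bring long-chain fatty acids into mitochondria and shorten them there by beta-oxidation. They are Cpt1a, Cpt1b, Slc25a20, Cpt2, Acadvl, Acadl, Acadm, Hadha, Hadhb and Acaa2. They were taken by name from the 55341 genes listed in the 3 count tables of the study; the rule uses no measured value, and all 10 were listed and passed the filter on low counts in every fit.

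Their levels were measured by RNA-seq of brown adipose tissue (BAT) in 59 male C57BL/6J mice aged 8 to 12 weeks, 1 library per mouse. In the thyroid hormone (TH) experiment all mice had received PTU, a blocker of thyroid hormone synthesis, in the food. Wild-type (WT) mice were taken without injection of hormone (WT PTU) or 3, 6, 12 or 24 h after a single intraperitoneal injection of T3 and T4, with 4 mice in each of these 5 groups, and BATKO mice were taken without it or at 24 h, with 5 mice in each group. In the temperature experiment, control (CTRL) and BATKO mice were kept for 24 h at 4 °C (3 CTRL and 4 BATKO) or at 30 °C (4 CTRL and 5 BATKO). In the diet experiment, mice were fed for 3.5 days with chow (4 CTRL and 2 BATKO) or with a high-fat diet (HFD; 4 CTRL and 3 BATKO). The labels and the methods of the study do not say which gene is changed in BATKO mice, or in which cells, so the knockout could not be checked on the counts. The samples are labelled as separate mice.

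The libraries held between 7612059 and 18073627 counts (median 11349606). All 10 brown adipocyte markers of the marker list were detected in every group, Ucp1 among them. Transcripts of skeletal muscle varied between mice, with a sum of 12 markers between 0.870 and 8921 CPM (the count relative to the normalized library size) in the temperature experiment. It exceeded 5000 CPM in 3 mice, all kept at 30 °C (1 CTRL and 2 BATKO mice). Results that changed without these mice are named below.

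Long-chain fatty acids cross the mitochondrial membranes as carnitine esters. CPT1, on the outer membrane, makes the ester and is the step that malonyl-CoA inhibits; the carrier encoded by Slc25a20 moves it inward, and CPT2 returns the acyl group to coenzyme A. Each turn of the spiral then oxidises, hydrates, oxidises and cleaves the acyl-CoA, and in brown fat the electrons released feed the respiration that UCP1 turns into heat.

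Stretches upstream of RefSeq start sites are printed here for Acadm, Acadvl and Cpt1a, whose windows hold a hexamer that nuclear receptors recognise, and for Slc25a20, which holds none and was called after TH and in the cold (GRCm38.p6, read 5′ to 3′ on the strand of the gene), and the segment between the GENCODE M21 start sites of Hadha and Hadhb is printed on the plus strand to show how close they lie. The windows of Cpt2 and Acadl, also called in the comparisons, hold no hexamer and are not printed. Capitals mark the hexamer AGGTCA or, on the other strand, TGACCT. None of the printed bases lies in an annotated exon. The Cpt1a stretch lies before the RefSeq start site but inside the gene as GENCODE M21 places it, with a start at 3322334.
Acadm, chr3:153944774-153944893, minus strand: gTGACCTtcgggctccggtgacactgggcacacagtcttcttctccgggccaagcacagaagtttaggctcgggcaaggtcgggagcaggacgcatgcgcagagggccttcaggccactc
Acadvl, chr11:70015453-70015572, minus strand: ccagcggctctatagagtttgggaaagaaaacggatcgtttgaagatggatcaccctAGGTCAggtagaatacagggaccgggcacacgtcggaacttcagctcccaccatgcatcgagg
Cpt1a, chr19:3323150-3323269, plus strand: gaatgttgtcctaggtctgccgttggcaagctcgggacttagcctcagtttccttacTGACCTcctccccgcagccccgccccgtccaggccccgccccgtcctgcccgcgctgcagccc
Hadha to Hadhb, chr5:30155163-30155247, plus strand: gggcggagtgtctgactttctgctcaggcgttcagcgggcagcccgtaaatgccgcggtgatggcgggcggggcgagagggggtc
Slc25a20, chr9:108661968-108662087, plus strand: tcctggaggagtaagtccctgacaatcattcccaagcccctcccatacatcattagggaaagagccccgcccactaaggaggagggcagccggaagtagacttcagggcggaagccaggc

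Hadha and Hadhb, whose products form the mitochondrial trifunctional protein, are transcribed in opposite directions from GENCODE start sites with 85 bases between them; the RefSeq start sites lie further apart. Windows from 250 bases before to 50 bases after the RefSeq start site were searched on both strands for 8 of the 10 genes (no window was used for Cpt1b and Acaa2). The hexamer was found in 3 of the 8, with its first base 249 bases before the start in Acadm, 87 before it in Acadvl and 94 before it in Cpt1a. Over all 32851 windows, 16.3% hold it. A pair of hexamers in the same direction, spaced by 4 bases (DR4) or by 1 base (DR1), was in 0 of the 8 windows, against 0.0152% and 0.0396% of all windows. These are letter matches and do not locate a bound site.

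In the GENCODE annotation of GRCm38, Cpt1a (the CPT1 isoform best known from liver) lies at chr19:3322334-3385733 on the plus strand and Cpt1b (the isoform of muscle and brown fat) at chr15:89416405-89425863 on the minus strand. Slc25a20, the carnitine-acylcarnitine carrier, is at chr9:108662088-108684641 (plus) and Cpt2 at chr4:107903981-107923610 (minus). The acyl-CoA dehydrogenases for very long, long and medium chains are Acadvl, at chr11:70010183-70015411, Acadl, at chr1:66830839-66863277, and Acadm, at chr3:153922357-153944632, all on the minus strand. Hadha is at chr5:30118304-30155162 (minus) and Hadhb at chr5:30155248-30184593 (plus). Acaa2, the thiolase that releases acetyl-CoA, is on chromosome 18.

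The counts of Cpt1b are uncertain. Of its 3372 exonic bases, 2744 (81.4%) also belong to the read-through gene Gm44502 on the same strand, which holds 0 counts in every mouse, and htseqcount in its default mode assigns a read in exons of both genes to neither. The mode used is not given in the sources used here. Cpt1b had between 9 and 117 counts per mouse, which may stand for the 628 bases outside Gm44502 alone. Acadvl shares 1151 of its exonic bases with Dvl2 on the opposite strand. Dvl2 stayed at 4.41 CPM or less in every mouse, whereas the lowest Acadvl value was 133 CPM.

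Levels are given as CPM after TMM normalization within an experiment, and compared between genes per kilobase of exon. On that scale Acaa2 had the highest mean of the 10 genes in every group. In chow-fed CTRL mice (n = 4) the mean was 1011 ± 91.1 CPM per kilobase (SD) for Acaa2, 493 ± 24.2 for Acadl and 154 ± 38.6 for Cpt2. It was 115 ± 1.99 for Acadm and 102 ± 14.6 for Acadvl, a difference smaller than the spread of Acadvl between mice. Hadha (48.0 ± 9.21), Slc25a20 (34.2 ± 5.51) and Hadhb (29.2 ± 3.20) followed, with overlapping mice from each gene to the next.

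The CPT1 isoforms were far below the other 8 genes, with 1.76 ± 0.0992 CPM per kilobase for Cpt1a and 1.49 ± 0.192 for Cpt1b in the chow-fed CTRL mice, when the counts of Cpt1b are divided by all its exonic bases. Over the 628 bases outside Gm44502 Cpt1b had 7.99 ± 1.03, above Cpt1a and still below the other 8, so the order of the isoforms depends on the length taken. In WT PTU mice Acaa2 (602 ± 27.5), Acadl (576 ± 43.9) and Cpt2 (495 ± 46.7) overlapped from each gene to the next. Acadm (286 ± 21.7), Hadhb (73.6 ± 6.27), Hadha (65.6 ± 5.33), Acadvl (60.6 ± 8.00) and Slc25a20 (52.8 ± 4.28) followed in that order, and Cpt1b (1.52 ± 0.429, or 8.17 ± 2.30 over the 628 bases) and Cpt1a (0.952 ± 0.0262) were again the lowest.

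The first question was whether TH changed the levels of the 10 genes in BAT of hypothyroid mice and in which order. No member passed the test at 3 or 6 h, Cpt1a and Slc25a20 rose at 12 h, and Acadm and Acadl fell at 24 h. The changes were modest, at most 1.64-fold. All 4 time points were compared with the same 4 WT PTU mice, so these comparisons are not independent.

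**Figure D1:**
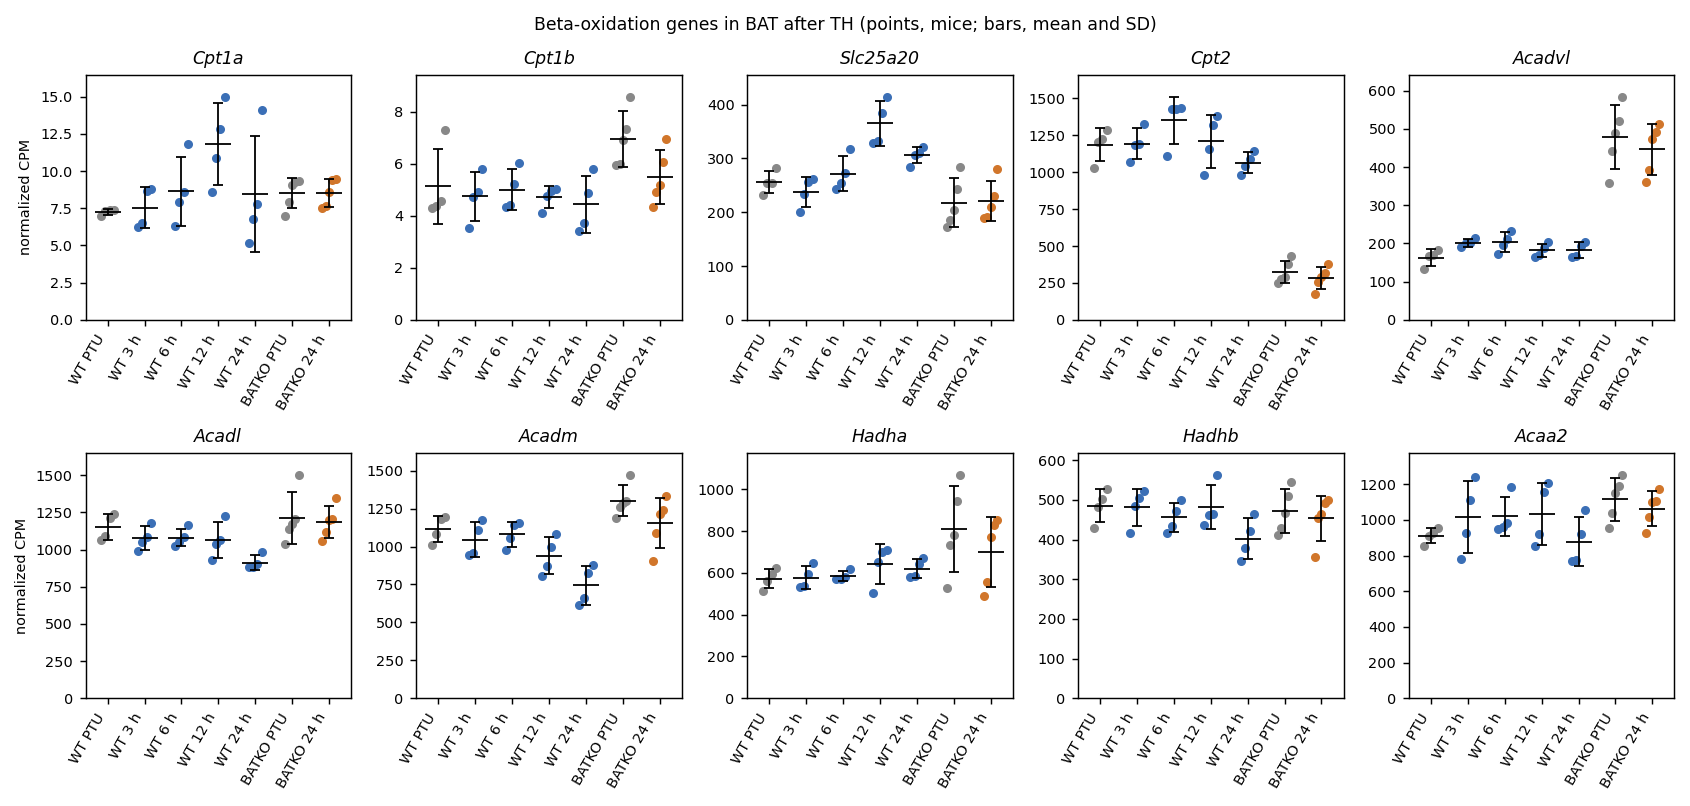
Normalized CPM (vertical axes, starting at 0) of each of the 10 genes in every mouse of the TH experiment, by group, with the mean and SD. The 4 mice at 12 h lie above the 4 WT PTU mice for Slc25a20 and Cpt1a, the 4 mice at 24 h lie below them for Acadm and Acadl, and the BATKO groups overlap for every gene.

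In WT PTU mice Slc25a20 was at 232, 253, 255 and 283 CPM. At 3 h it was at 200, 234, 255 and 261 CPM and at 6 h at 242, 254, 273 and 317 CPM, both overlapping the PTU mice. At 12 h the values were 329, 332, 385 and 414 CPM, all above every PTU mouse, and the gene rose 1.44-fold (log2 fold change 0.52 ± 0.11 SE, adjusted p = 0.00154). At 24 h it was at 285, 307, 311 and 321 CPM, again above the PTU mice without overlap, but the difference (0.26 on the log2 scale) did not pass the test (adjusted p = 0.0856). Between 6 and 12 h Slc25a20 rose 1.37-fold (adjusted p = 0.0357), a call that was lost in fits of all 30 mice or of only these 2 groups, with total counts alone, and in 5 of 8 fits that leave out a mouse.

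Cpt1a was close to 7 CPM in all WT PTU mice (6.98, 7.35, 7.38 and 7.40 CPM). At 12 h it was at 8.57, 10.9, 12.9 and 15.0 CPM, above all PTU mice, and rose 1.64-fold (log2 fold change 0.71 ± 0.24 SE, adjusted p = 0.0348). The call was lost when any 1 of 6 of the 8 mice was left out, with an effect of at least 0.57 on the log2 scale. At 24 h the mice were spread from 5.15 to 14.1 CPM around the PTU values, and the gene did not pass the test (0.23, adjusted p = 0.504). Both genes that rose at 12 h act in the entry of fatty acids as carnitine esters. Cpt2 and Cpt1b, which act there too, were not called. Their means at 12 h were 1208 and 4.73 CPM, against 1185 and 5.13 CPM in WT PTU mice.

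Acadm, the medium-chain dehydrogenase, was at 1012, 1086, 1181 and 1191 CPM in WT PTU mice and at 806, 874, 996 and 1080 CPM at 12 h. At 24 h it was at 613, 661, 828 and 879 CPM. All 4 mice at 24 h were below all PTU mice, and the level fell to 0.666 of that of PTU (log2 fold change -0.59 ± 0.12 SE, adjusted p = 0.001).

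Acadl, the long-chain dehydrogenase, was at 1066, 1092, 1216 and 1242 CPM in WT PTU mice and at 881, 882, 902 and 987 CPM at 24 h. The groups did not overlap, and the level fell to 0.790 (log2 fold change -0.34 ± 0.10 SE, adjusted p = 0.00975). The very-long-chain dehydrogenase Acadvl had the other sign. It was at 133 to 183 CPM in PTU mice, at 190 to 215 CPM at 3 h, without overlap, and at 174 to 234 CPM at 6 h, and passed the test at neither time (0.29, adjusted p = 0.113 at 3 h and 0.31, adjusted p = 0.0545 at 6 h).

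Cpt2, Hadha, Hadhb, Acaa2 and Cpt1b passed the edgeR test at no time point in WT mice. Their log2 fold changes were between -0.13 and 0.19 up to 12 h and between -0.27 and 0.11 at 24 h. The lowest adjusted p among them was 0.0691, for Hadhb at 24 h (345 to 465 CPM against 429.6 to 527 CPM in PTU mice), which DESeq2 called (adjusted p = 0.0479).

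The members' calls were set beside those of all 13003 genes tested in WT mice. At 3 h, 9.19% of all genes were called by edgeR and 0 of the 10 members, of which 1 (Acadvl) had an unadjusted p under 0.05, against 3244 of all 13003 genes. At 6 h the share of all genes was 23% and again 0 members were called, 1 of them with an unadjusted p under 0.05, against 4701 of all 13003 genes. DESeq2 called 0 members at 3 h and Acadvl at 6 h. At 12 h, 25.7% of all genes were called (13.6% called higher, against 2 of 10 members). At 24 h the share was 32.7% (15.5% called lower, against 2 of 10 members).

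The median log2 fold change of the members was -0.02, 0.04, 0.10 and -0.11 at 3, 6, 12 and 24 h, while that of all genes stayed between -0.02 and 0.01. Between successive times, 2.8% of all genes were called from 3 to 6 h, 2.95% from 6 to 12 h (1.59% higher) and 11.4% from 12 to 24 h. With TMM, Slc25a20, from 6 to 12 h, was the only member called by edgeR in these 3 comparisons. With total counts alone it was not called, and Acadm was called lower from 6 to 12 h (-0.37, adjusted p = 0.0356). From 3 to 6 h 0 members had an unadjusted p under 0.05, against 2132 of all 13003 genes, and DESeq2 called 0 members. From 12 to 24 h all 10 members had a negative log2 fold change, with a median of -0.24 against 0.02 for all genes, but with total counts alone 4 of them (Cpt1b, Cpt2, Acadvl and Hadha) were positive, and Acadvl was also positive when genes of mitochondrial DNA were left out. By edgeR 0 of them passed the test, 4 had an unadjusted p under 0.05 (Slc25a20, Acadl, Acadm and Hadhb), against 3448 of all 13003 genes, and DESeq2 called Acadm.

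Scaling by total counts alone, without TMM, moved the median log2 fold change of all genes at 24 h from 0.01 to 0.19 and the share of called genes that were higher from 52.7% to 75.4%. At 12 h it left Slc25a20 as the only call. At 24 h Acadm was still called lower (-0.42), Acadl was not (-0.16), and Slc25a20 was called higher (0.44, adjusted p = 0.00705). The log2 fold changes of Cpt2 and Acaa2 turned positive at 24 h, and neither was called on either scale. Cell type markers moved with these changes. At 12 h the sum of 5 endothelial markers was 235 to 298 CPM against 307 to 328 CPM in PTU mice, with Cdh5 lower (-0.44, adjusted p = 0.00483), and the brown adipocyte sum was 16676 to 23220 CPM, with 1 of 10 markers higher (Ucp1) and 4 lower (Adrb3, Plin1, Adipoq and Fabp4). At 24 h Cd68 of macrophages was higher (0.89, adjusted p = 0.0107), and of endothelial markers Pecam1 was lower (-0.29) and Kdr higher (0.33). The lymphocyte sum was 0.446 to 1.24 CPM at 24 h against 1.32 to 2.65 CPM in PTU mice, without overlap. Brown adipocyte markers moved at 24 h too, 2 of 10 higher and 6 lower, among them Adipoq (-2.14) and Plin1 (-1.10), and their summed level was 13696 to 20810 CPM against 15515 to 17689 CPM in PTU mice. In these bulk samples fewer brown adipocytes and less RNA per cell cannot be told apart, and the part of the markers in the results for the 4 members called was not tested.

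In BATKO mice the same 24 h of TH gave 0 called genes of 14178 by edgeR (0% of all genes, with 673 at an unadjusted p under 0.05, and 0 by DESeq2), and hence 0 of the 10 members. The members' log2 fold changes were between -0.34 (Cpt1b, the only one with an unadjusted p under 0.05) and 0.02. Acadm was at 1190, 1261, 1286, 1300 and 1471 CPM in BATKO PTU mice and at 904, 1088, 1215, 1239 and 1332 CPM after TH, which overlap. Slc25a20 overlapped as well, at 173 to 285 CPM and 189 to 280 CPM.

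The difference between the BATKO and WT responses was called for 12.3% of all genes and for 0 of the 10 members by edgeR and by DESeq2, with 2 (against 3836 of all 14178 genes) at an unadjusted p under 0.05. It was 0.41 on the log2 scale for Acadm (95% confidence interval 0.07 to 0.76, adjusted p = 0.109) and 0.31 for Acadl (0.01 to 0.60, adjusted p = 0.166). The decline of both genes in WT mice is therefore not shown to differ from BATKO mice at this threshold. Without BATKO mouse 8, which had the lowest Acadm level of the treated BATKO mice, the difference for Acadm passed (0.49, adjusted p = 0.0453). Leaving out that lowest value enlarges the difference by construction.

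The BATKO and WT mice of the TH experiment also differed in PTU levels of some members, without overlap of the mice. Cpt2 was at 248 to 431 CPM in BATKO PTU mice and at 1025 to 1284 CPM in WT PTU mice, a ratio of 3.64 between the WT and BATKO means. Acadvl had the opposite order, at 359 to 584 CPM in BATKO and 133 to 183 CPM in WT mice (2.94-fold). The brown adipocyte marker sum was 10322 to 12466 CPM in BATKO PTU and 15515 to 17689 CPM in WT PTU mice. The endothelial sum was 396 to 449 CPM and 307 to 328 CPM, and the other marker sums overlapped. The part of the markers in these differences was not tested. Of all 14178 genes, 35.7% differed at least 2-fold between the means of these groups, and no test is given. In CTRL and BATKO mice the Cpt2 means were 349 and 387 CPM at 30 °C, 1170 and 972 CPM at 4 °C, and 368 and 346 CPM on chow. Those of Acadvl were 209 and 278 CPM, 689 and 457 CPM, and 274 and 204 CPM. The WT mice here are not the CTRL mice of those experiments. Differences of genotype and of other kinds between these sets of mice cannot be told apart.

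The second question was how the genes differ between cold and 30 °C, the temperature at which mice need no extra heat production. More members were called here than after TH or on HFD, with TMM as with total counts alone. With TMM the share of all genes called was also higher here. It was 49.1% in CTRL and 40.3% in BATKO mice, against at most 32.7% after TH and 3.94% on HFD. In CTRL mice 7 of the 10 genes, against 26.5% of all genes, were called higher at 4 °C than at 30 °C with TMM (Slc25a20, Hadha, Cpt2, Acadvl, Hadhb, Acadm and Acadl), led by Slc25a20 at 4.33-fold. In BATKO mice the same 7 genes and Cpt1b were called higher, against 21.4% of all genes. With TMM no member was called lower, and the thiolase Acaa2 was at similar levels at both temperatures in both genotypes.

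**Figure D2:**
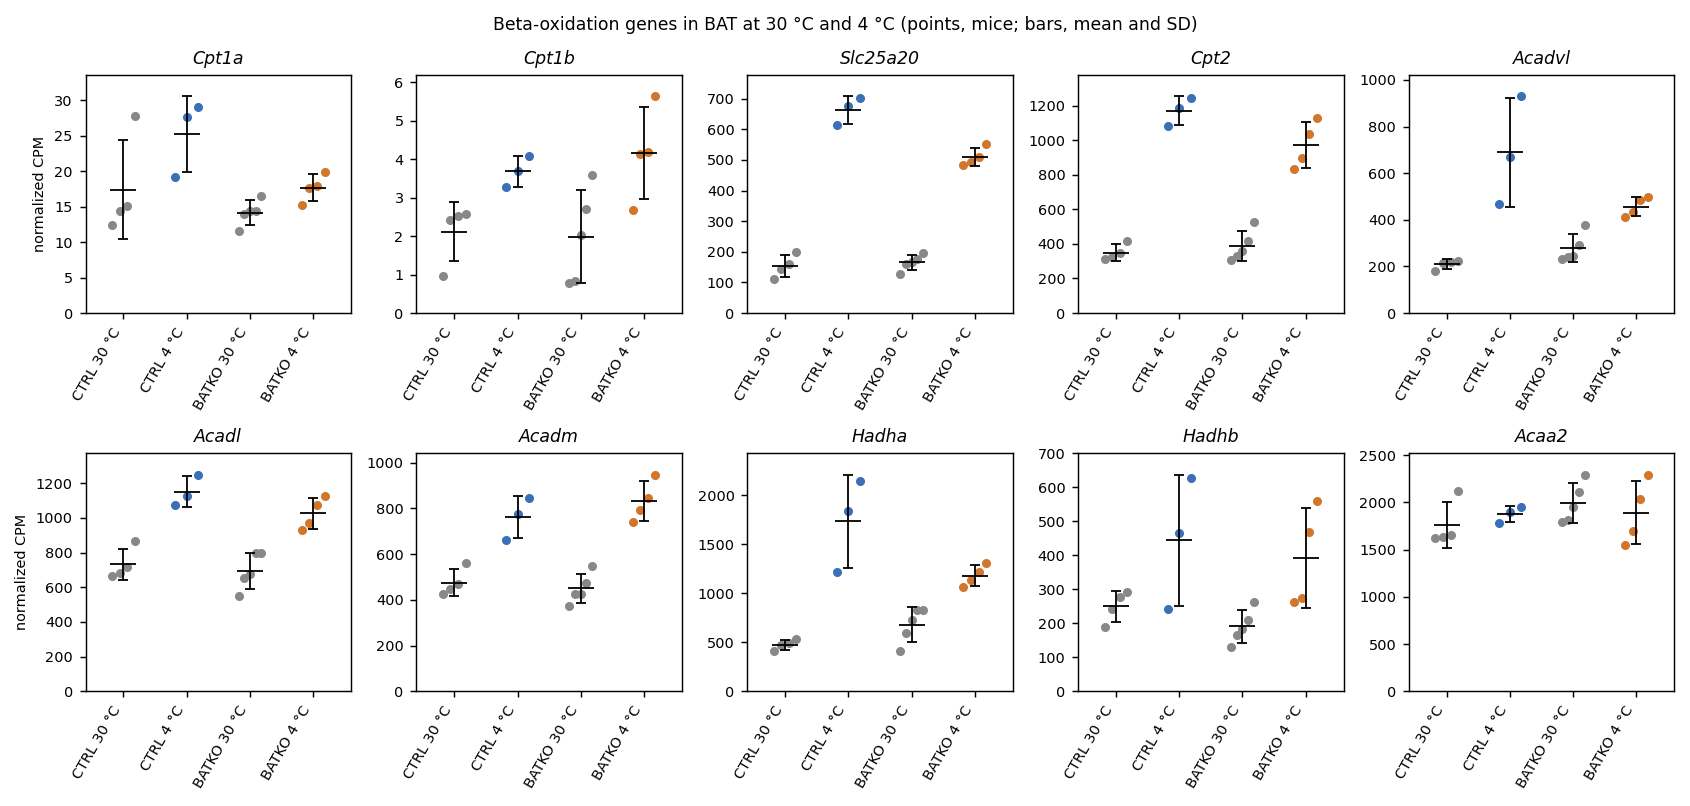
Normalized CPM (vertical axes, starting at 0) of each of the 10 genes in every mouse at 30 °C and 4 °C, by genotype, with the mean and SD. Slc25a20 and Cpt2 separate the temperatures without overlap in both genotypes, Hadha and Acadvl reach higher values at 4 °C in CTRL than in BATKO mice, and Acaa2 overlaps throughout. The levels are scaled by TMM. With total counts alone 4 genes were called higher in the cold in each genotype, Acaa2 was called lower, and Cpt1a had a negative sign.

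Among the genes of carnitine-dependent entry, Slc25a20 was at 110, 142, 162 and 198 CPM in CTRL mice at 30 °C and at 613, 676 and 701 CPM at 4 °C. The lowest cold mouse was thus above 3 times the highest warm mouse, and the log2 fold change was 2.12 ± 0.18 (SE, adjusted p = 1.97e-07). BATKO mice had 128, 160, 167, 177 and 196 CPM at 30 °C and 485, 493, 509 and 552 CPM at 4 °C, a 3.08-fold rise (1.62 ± 0.15, adjusted p = 1.53e-06). Warm mice of both genotypes covered the same range, and every cold BATKO mouse was below every cold CTRL mouse.

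Cpt2, the inner-membrane transferase, was at 310, 323, 345 and 418 CPM in CTRL mice at 30 °C and at 1079, 1188 and 1243 CPM at 4 °C (3.35-fold, 1.74 ± 0.18, adjusted p = 1.31e-06). In BATKO mice it went from 306, 330, 360, 417 and 525 CPM at 30 °C to 830, 897, 1037 and 1126 CPM at 4 °C (2.51-fold, adjusted p = 1.02e-05). Neither genotype had overlapping groups.

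Cpt1a, which catalyses the step ahead of these, gave no call in either genotype. CTRL mice were at 12.4, 14.4, 15.0 and 27.7 CPM at 30 °C and at 19.2, 27.6 and 29.0 CPM at 4 °C (0.54, adjusted p = 0.0619), and CTRL mouse 19 is the warm mouse inside the cold range. Without it the difference was 0.85 (adjusted p = 0.000955), and leaving out the highest warm value enlarges the difference by construction. With total counts alone the sign of Cpt1a turned to -0.11 in CTRL and -0.06 in BATKO mice. In BATKO mice, with TMM, the difference was 0.32 (adjusted p = 0.223).

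Cpt1b was low at both temperatures, at 0.958 to 2.56 CPM in warm and 3.27 to 4.08 CPM in cold CTRL mice (0.80, adjusted p = 0.147). In BATKO mice it was at 0.784 to 3.58 CPM and 2.69 to 5.63 CPM, which overlap, with a called difference of 1.06 (adjusted p = 0.038). That call was lost in 6 of 9 fits that leave out a mouse, and without the 3 mice rich in muscle transcripts (0.80), and rests on at most 52 counts per mouse.

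The acyl-CoA dehydrogenases differed in how far they moved. Acadvl was at 179, 215, 219 and 224 CPM in CTRL mice at 30 °C and at 466, 670 and 930 CPM at 4 °C (3.29-fold, 1.72 ± 0.21 SE, adjusted p = 5.47e-06). BATKO mice had Acadvl levels of 233, 242, 245, 293 and 376 CPM at 30 °C and of 411, 433, 486 and 497 CPM at 4 °C (1.64-fold, 0.72, adjusted p = 0.00483). Temperatures did not overlap in either genotype, and in CTRL mice the 3 cold values were spread widely. Dvl2, which shares exonic bases with Acadvl, moved the other way in CTRL (-1.39, adjusted p = 0.00475) and BATKO mice (-1.08, adjusted p = 0.00857) and was at 4.27 CPM or less in all of them.

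Acadl was at 666.5, 680, 714 and 864 CPM in warm and at 1076, 1124 and 1249 CPM in cold CTRL mice (1.57-fold, 0.65, adjusted p = 0.00178). Acadm was at 427, 447, 468 and 559 CPM in warm and at 663, 776 and 847 CPM in cold CTRL mice (1.60-fold, 0.68, adjusted p = 0.0015). In BATKO mice Acadl rose by 0.56 (adjusted p = 0.00291) and Acadm by 0.89 (adjusted p = 8.65e-05) on the log2 scale, and no warm mouse overlapped a cold mouse for either gene in either genotype.

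Hadha encodes the subunit of the trifunctional protein with hydratase and dehydrogenase activity. It was at 409, 471, 493 and 529.6 CPM in warm and at 1215, 1842 and 2147 CPM in cold CTRL mice (3.65-fold, 1.87 ± 0.22 SE, adjusted p = 5.35e-06). Levels in BATKO mice were 412, 595, 730.2, 826 and 829 CPM at 30 °C and 1061, 1137, 1214 and 1307 CPM at 4 °C (1.74-fold, 0.80, adjusted p = 0.00394).

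Hadhb, the thiolase subunit of the same complex, did not follow Hadha mouse by mouse. In CTRL mice it was at 188, 241, 278 and 291 CPM at 30 °C and at 241, 465 and 627 CPM at 4 °C. The groups overlapped, and the difference of 0.83 ± 0.32 (SE, adjusted p = 0.0384) lost its call in 4 of 7 fits that leave out a mouse, with CTRL mice 2 and 5 at 4 °C and 19 and 20 at 30 °C. In BATKO mice Hadhb was at 130.009, 166, 185, 210 and 263 CPM at 30 °C and at 262, 274, 470 and 561 CPM at 4 °C (1.04, adjusted p = 0.00738). That comparison kept its call with each mouse left out.

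**Figure D3:**
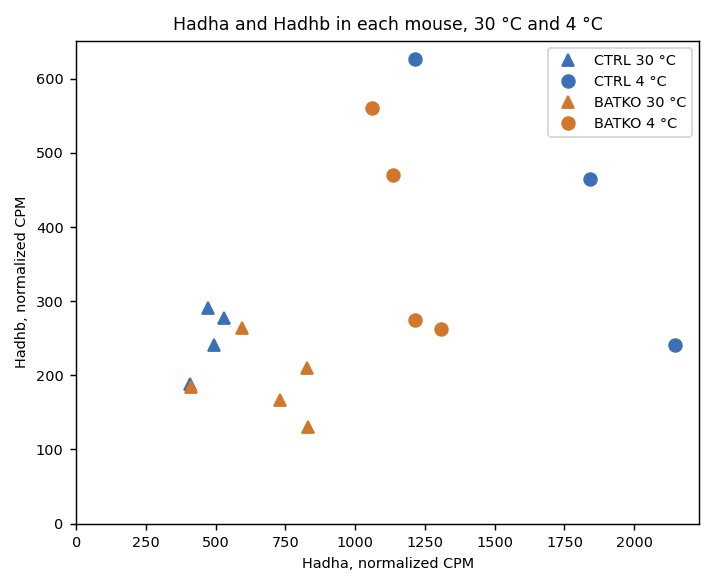
Hadhb (vertical axis) against Hadha (horizontal axis), both in normalized CPM from 0, for each of the 16 mice of the temperature experiment; triangles are mice at 30 °C, circles mice at 4 °C. The CTRL mouse at 4 °C with the highest Hadha value, 2147 CPM, has the lowest Hadhb value of its group, 241 CPM.

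The ratio of Hadha to Hadhb was 1.62 to 2.17 in warm CTRL mice, and 8.89, 3.96 and 1.94 in the 3 cold CTRL mice, in the order of their Hadha levels. It was between 2.24 and 6.38 in warm and between 1.89 and 4.99 in cold BATKO mice. Over the 16 mice, after subtraction of the mean of each of the 4 groups, the correlation of log2 levels was -0.46 between Hadha and Hadhb, 0.70 between Hadha and Acadvl and -0.62 between Hadhb and Acadvl, whereas Acadl and Acadm had 0.92. These correlations are descriptions over mice that share library size and scaling. In WT PTU mice the ratio was 1.12 to 1.29, and within the groups of the TH experiment Hadha and Hadhb had a correlation of 0.57 over 30 mice, against -0.01 over 13 mice within the groups of the diet experiment.

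Acaa2, the last enzyme of the spiral and the member with the highest level per length, was at 1628, 1632, 1652 and 2124 CPM in warm and at 1780, 1893 and 1956 CPM in cold CTRL mice (0.09, adjusted p = 0.646). In BATKO mice the values were 1795 to 2295 CPM and 1547 to 2287 CPM (-0.07, adjusted p = 0.692). With total counts alone it was called lower in the cold in both genotypes (-0.48 and -0.46, adjusted p = 0.0269 and 0.0205).

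Cold changed much of the transcriptome, with 49.1% of 13267 genes called in CTRL mice (26.5% called higher, against 7 of 10 members) and 40.3% in BATKO mice (21.4% called higher, against 8 of 10 members). The median log2 fold change of the members was 0.82 in CTRL and 0.84 in BATKO mice, against -0.01 and -0.02 for all genes. Scaling by total counts alone shifted the median of all genes to -0.61 in CTRL and -0.41 in BATKO mice and lowered the share of called genes that were higher from 53.9% to 17.7% and from 53.1% to 18.1%. Relative to these medians the members' medians were 0.85 and 0.88.

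The shares of all tested genes above are from TMM, and none is given here for total counts. On the scale of total counts, 4 members were still called higher in CTRL mice (Slc25a20 by 1.56, Hadha by 1.31, Cpt2 by 1.18 and Acadvl by 1.17). In BATKO mice the 4 were Slc25a20 (1.25), Cpt2 (0.96), Hadhb (0.66) and Acadm (0.51). The calls of Acadl, and of Acadm and Hadhb in CTRL or Acadvl, Hadha and Cpt1b in BATKO mice, therefore depend on the scaling, and Acaa2 was the only member called lower. Left out of the scaling, the genes of mitochondrial DNA, which took 39 to 56% of the counts, changed no call among the members in the cold.

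Other markers moved with temperature. The sum of the 10 brown adipocyte markers was 6315 to 8002 CPM in warm and 26524 to 32062 CPM in cold CTRL mice, and 6572 to 8181 CPM and 18086 to 27055 CPM in BATKO mice, Ucp1 alone rising by 4.40 and 3.43 on the log2 scale. The sum of 5 red blood cell markers was 177 to 333 CPM in warm and 766 to 1711 CPM in cold CTRL mice, and 182 to 494 CPM and 771 to 1111 CPM in BATKO mice. Of 6 macrophage markers 2 were lower in CTRL mice (Cd14 and Lyz2), and in BATKO mice Cd14 was lower and Mrc1 higher. The macrophage sum was 50.9 to 62.2 CPM in cold against 68.7 to 115 CPM in warm CTRL mice. The sum of 6 lymphocyte markers, none of which passed the filter, was 0.737 to 1.13 CPM against 1.85 to 4.15 CPM in CTRL mice and overlapped in BATKO mice. Of 5 endothelial markers Kdr was higher in CTRL and Cdh5 lower in BATKO mice. No marker of muscle was called. The part of these markers in the differences of the members was not tested. Without the 3 mice rich in muscle transcripts, 7 members were called in each genotype.

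At 4 °C, 2.16% of all genes differed between BATKO and CTRL mice, and 0 of the 10 members did by edgeR and by DESeq2, with 4 (against 2194 of all 13267 genes) at an unadjusted p under 0.05. Acadvl was lower by 0.59 on the log2 scale in BATKO mice (95% confidence interval -1.03 to -0.16, adjusted p = 0.148), Hadha by 0.56 (adjusted p = 0.211), Cpt1a by 0.52 (adjusted p = 0.267) and Slc25a20 by 0.38 (adjusted p = 0.284). Without CTRL mouse 5, which had the lowest Acadvl value of the cold CTRL mice, Acadvl passed (-0.84, adjusted p = 0.0297). Leaving out the lowest CTRL value enlarges this difference by construction. At 30 °C, 0.00754% of all genes differed (1 gene), and 0 members did by either tool, with 2 (against 1209 of all 13267 genes) at an unadjusted p under 0.05, Acadvl (0.41, adjusted p = 0.543) and Hadha (0.51, adjusted p = 0.542).

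The response to cold differed between genotypes for 1.12% of all genes and for 0 members by edgeR. The largest differences among members were those of Hadha, -1.07 on the log2 scale (95% confidence interval -1.70 to -0.44, adjusted p = 0.0828), and Acadvl, -1.001 (-1.58 to -0.42, adjusted p = 0.0815), both with an unadjusted p under 0.05 (as had 2471 of all 13267 genes). DESeq2 called both (adjusted p = 0.0143 for Hadha and 0.0146 for Acadvl). So did edgeR without cold CTRL mouse 5 (-1.27 and -1.22, adjusted p = 0.0207 and 0.0162), and Hadha was called without warm BATKO mouse 13 (-1.20, adjusted p = 0.0336). Mouse 5 had the lowest value of both genes among cold CTRL mice, so leaving it out enlarges these differences by construction. For Slc25a20 the difference was -0.49 (adjusted p = 0.268).

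The third question was whether a short high-fat diet changed the genes. All 10 members had a positive log2 fold change on HFD in both genotypes, with TMM as with total counts alone, but by edgeR 0 passed the test in either. The median was 0.25 in CTRL mice, against 0.01 for all genes, and 0.39 in BATKO mice, against 0.03 for all genes. Unadjusted p-values under 0.05 were found for 5 members in CTRL and 6 in BATKO mice. Over all 12932 genes the numbers were 2802 and 1996. The sum of brown adipocyte markers was higher on HFD without overlap, at 10074 to 12212 CPM against 8297 to 10056 CPM in CTRL and 12043 to 13233 CPM against 9207 to 10612 CPM in BATKO mice. Of the 10 markers 4 were called higher in CTRL (Cox7a1, Cox8b, Adrb3 and Prdm16) and 1 in BATKO mice (Prdm16). In CTRL mice the sum of 6 lymphocyte markers, none of which passed the filter, was 0.381 to 0.899 CPM on HFD against 1.91 to 3.36 CPM, and that of 6 macrophage markers was 89.3 to 238 CPM against 66.0 to 76.2 CPM, whereas in BATKO mice the macrophage sum was 69.4 to 140 CPM on HFD against 154 to 190 CPM. The red blood cell sum of BATKO mice was 583 to 1187 CPM on HFD against 453 to 484 CPM, and it overlapped in CTRL mice. Their part in the differences was not tested.

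**Figure D4:**
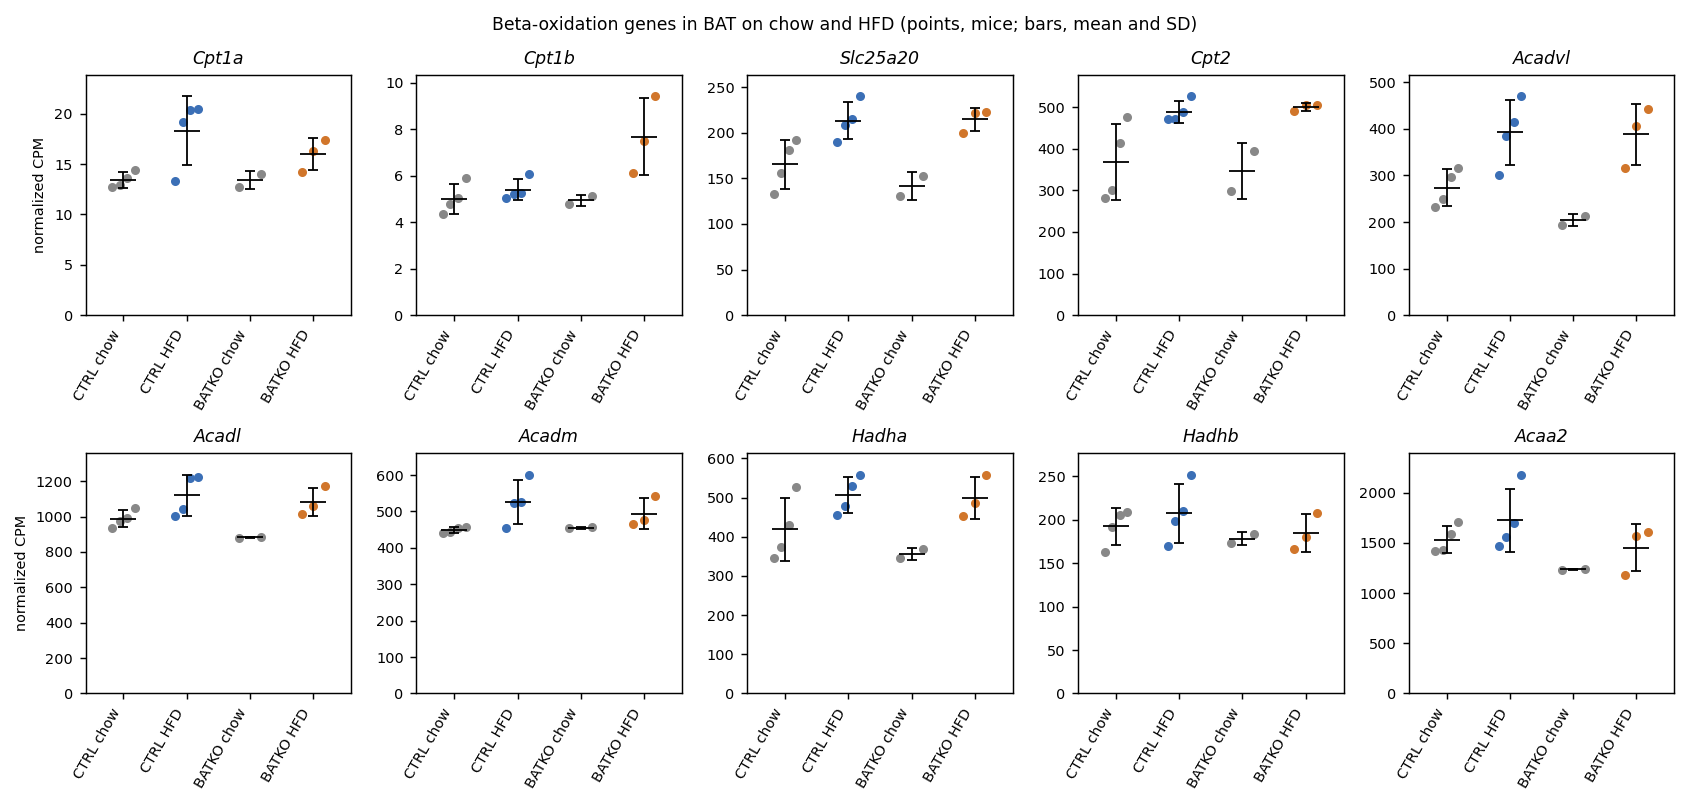
Normalized CPM (vertical axes, starting at 0) of each of the 10 genes in every mouse on chow and HFD, by genotype, with the mean and SD; the BATKO chow group has 2 mice. Acadvl reached its highest values on HFD in both genotypes, with overlap in CTRL (233 to 316 CPM on chow and 302 to 470 CPM on HFD) and none in BATKO mice.

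Acadvl had the largest log2 fold change in both genotypes. It was at 233, 249, 297 and 316 CPM in chow-fed and at 302, 384, 416 and 470 CPM in HFD-fed CTRL mice (0.52, adjusted p = 0.0646). In BATKO mice it was at 194 and 213 CPM on chow and at 315, 406 and 443 CPM on HFD (1.91-fold, 0.93, adjusted p = 0.083). DESeq2 called it in both (adjusted p = 0.0148 and 0.000697).

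Slc25a20 was at 133, 156, 181 and 192 CPM in chow-fed and at 190, 209, 215 and 240 CPM in HFD-fed CTRL mice (0.37, adjusted p = 0.104). In BATKO mice it was at 131 and 152 CPM and at 200, 221 and 223 CPM, without overlap (0.60, adjusted p = 0.129 by edgeR and 0.0201 by DESeq2). Cpt1a was at 12.7 to 14.4 CPM on chow and 13.3 to 20.4 CPM on HFD in CTRL mice (0.45, adjusted p = 0.082), and 3 of the 4 HFD mice were above all chow mice.

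Cpt2 was higher by 0.41 in CTRL (adjusted p = 0.135) and 0.53 in BATKO mice (adjusted p = 0.239) on the log2 scale. Cpt1b was at 4.76 and 5.11 CPM in chow-fed and at 6.11, 7.50 and 9.41 CPM in HFD-fed BATKO mice (0.63, adjusted p = 0.227). Hadhb had the smallest differences in BATKO mice, 0.05, and 0.11 in CTRL mice.

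HFD changed 3.94% of all 12932 genes in CTRL mice and 0.0696% in BATKO mice, whose chow group has 2 mice. BATKO against CTRL mice on HFD gave 0 called genes by edgeR (0%, with 691 at an unadjusted p under 0.05, and 12 by DESeq2), and on chow also 0 (0%, with 1024 at an unadjusted p under 0.05, and 31 by DESeq2). Of the members 1 had an unadjusted p under 0.05 on HFD (Cpt1b, 0.50) and 1 on chow (Acadvl, -0.43), and DESeq2 called none. The diet response differed between genotypes for 0 genes (0%, with 740 at an unadjusted p under 0.05, and 0 by DESeq2), and 0 members had an unadjusted p under 0.05.

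**Figure D5:**
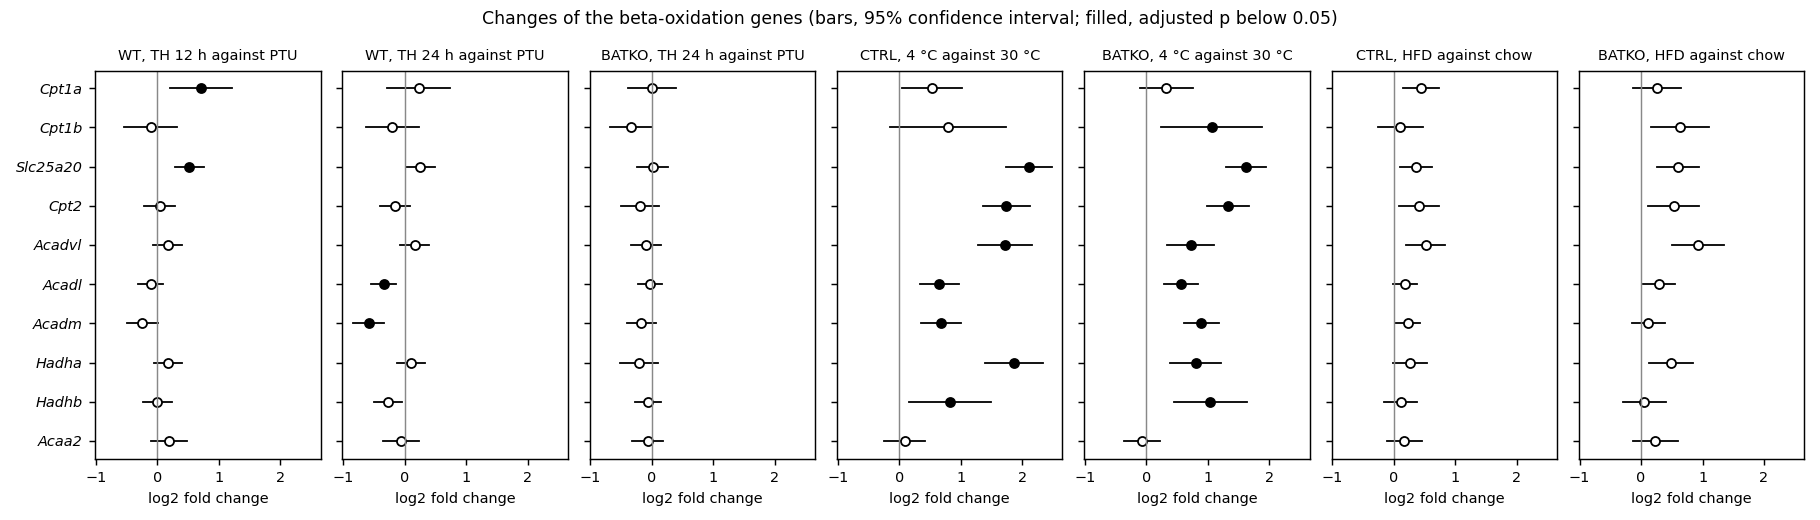
Log2 fold changes (horizontal axes) of the 10 genes in 7 comparisons, with 95% confidence intervals; filled points passed the adjusted threshold of 0.05. Calls are 2 at TH 12 h, 2 at TH 24 h, 0 in BATKO mice after TH, 7 and 8 in the cold and 0 on HFD. Of all genes 25.7%, 32.7%, 0%, 49.1%, 40.3%, 3.94% and 0.0696% were called in the 7 comparisons, in the order shown. The scale is TMM, and with total counts alone 4 members were called higher in the cold in each genotype, Acaa2 was called lower and the sign of Cpt1a turned.

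The genes around the spiral were grouped in lists, whose counts are given with TMM and, in the TH and cold comparisons, also with total counts alone where a call changed; for the PPAR targets in cold BATKO mice the counts are with total counts alone. Over all genes tested, 5.1% were called higher and 4.09% lower at 3 h of TH, 12.1% higher and 10.9% lower at 6 h, 13.6% were called higher and 12.1% lower at 12 h, 17.2% higher and 15.5% lower at 24 h, 26.5% higher and 22.6% lower in the cold in CTRL mice, and 21.4% higher and 18.9% lower in the cold in BATKO mice. Of the genes that make acyl-CoA or supply carnitine (8 listed, 7 tested), Slc22a5, the carnitine importer, rose at all 4 times after TH, by 1.52 at 12 h (adjusted p = 4.61e-07) and 1.19 at 24 h, and Acsl3 fell at 6 h. Acsl1, the main acyl-CoA synthetase of fat, fell at 12 and 24 h (-0.70 and -1.81). With Acsl4, 2 of the 7 rose and 1 fell at 12 h (median 0.07), and with Acsl5 higher and Crat lower, 2 rose and 2 fell at 24 h (median -0.04); with total counts Crat was not called at 24 h and the median was 0.13. In the cold, 4 rose in CTRL (Acsl5 by 4.44, Crat by 1.79, Acsl1 by 1.51 and Acsl4 by 0.67) and, with Acsl3, 5 in BATKO mice, and 0 fell, with medians of 0.67 and 1.03. With total counts 3 rose and 1 fell (Crot) in CTRL and 4 rose in BATKO mice. On HFD Acsl1 rose in CTRL mice (0.51, adjusted p = 0.0307).

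Of 12 other enzymes of the mitochondrial spiral, 0 were called at 3 and 12 h of TH by edgeR, and Acads rose at 6 h. At 24 h 0 rose and 5 fell (Acad11 by 0.85, Acadsb by 0.45, Decr1 by 0.37, Echs1 by 0.34 and Eci1 by 0.30), with a median of -0.22 against 0.01 for all genes, and with total counts Acad11 and Acadsb alone fell. In the cold 6 rose and 3 fell in each genotype (medians 0.39 and 0.46), against 2 and 3 that rose and 3 that fell with total counts, where Echs1 and Eci1 turned their sign in CTRL mice. Acad9, needed for complex I assembly, rose by 1.30 in CTRL and 1.22 in BATKO mice, and Acad12 fell by 1.12 and 1.45.

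The acyl-CoA dehydrogenases pass their electrons through ETF to ETF dehydrogenase. Of the 4 genes listed, Etfdh fell at 24 h of TH (-0.30, adjusted p = 0.0397), a call lost with total counts, where Etfb (0.52, adjusted p = 0.0431) and Etfbkmt (0.73, adjusted p = 0.0349) were called higher instead. Etfdh rose in the cold in CTRL (1.55) and BATKO mice (1.61) and on HFD in CTRL mice (0.36, adjusted p = 0.0247). Etfb fell in the cold in BATKO mice (-0.87), and Etfbkmt rose at 6 and 12 h of TH (0.99 at 12 h), with Etfb also called higher at 6 h with total counts.

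The genes listed for the control of CPT1 by its inhibitor malonyl-CoA are 3 that make or degrade malonyl-CoA and Cpt1c, a CPT1 gene (4 listed, 3 tested). All 3 tested rose in the cold in both genotypes, and 2 did in each with total counts. There Cpt1c, left out by the filter under TMM, was tested and called lower in CTRL mice (-1.19, adjusted p = 0.0346). Mlycd, which degrades malonyl-CoA, rose by 3.15 in CTRL and 1.83 in BATKO mice. This response differed between genotypes with TMM (-1.32, adjusted p = 0.0165) but was not called with total counts. Acacb, which makes malonyl-CoA at mitochondria, rose at 24 h of TH (0.70, adjusted p = 0.00296), and Acaca fell at 6 h. On HFD in CTRL mice Mlycd rose (0.68), a call lost with total counts, and Acaca fell (-1.08).

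Among 8 transcriptional regulators of fatty acid oxidation, the coactivators Ppargc1a (1.42 and 1.86) and Ppargc1b (0.72 and 0.65) rose at 3 and 6 h of TH. With Esrra, 3 rose and 0 fell at 3 h, and with Esrra, Esrrg and Ppard 5 rose and Ppara fell at 6 h; with total counts Esrra was lost at 3 h and Ppara at 6 h. At 12 h 3 rose (Esrrg, Esrra and Ppard) and 3 fell (Ppara, Pparg and Nrip1), with a median of 0.37, Ppard being lost with total counts, and 4 rose (the same with Ppargc1b) and 2 fell (Ppara and Nrip1) at 24 h (median 0.60). At 12 and 24 h the nuclear receptor Esrrg rose by 1.33 and 1.16, and Ppara fell (-1.36 and -1.16). In the cold, 4 rose in CTRL (Ppargc1a, Esrra, Ppard and Ppargc1b) and 2 in BATKO mice (Ppargc1a and Esrra), and Ppara and Nrip1 fell in both. With total counts 2 rose and 2 fell in CTRL mice, where Ppargc1b turned its sign, and 1 rose and 3 fell in BATKO mice. In the cold Ppargc1a rose by 2.57 and 1.19 and Esrra by 1.96 and 0.84. Both were lower in BATKO than in CTRL mice at 4 °C (-1.65, adjusted p = 0.022, and -0.80, adjusted p = 0.0492), Esrra with TMM alone. The difference in cold response between genotypes was called for neither. On HFD in CTRL mice Ppara fell (-0.52, adjusted p = 0.0408) and Pparg rose (0.43, adjusted p = 0.04), the latter a call lost with total counts. The TH response of BATKO minus that of WT mice was called for Ppard (-1.26), Esrrg (-1.38), Ppara (0.90) and Nrip1 (1.09), the last pair with TMM alone.

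Of 8 further PPAR targets (7 tested after TH), Ucp3 rose at all 4 times after TH (1.17 at 12 h and 1.41 at 24 h). Plin5 rose and Angptl4 and Acot2 fell at 6 h, Angptl4 fell at 12 h (-1.65), and Acot2 (-1.38) and Ehhadh (-1.25) fell at 24 h; with total counts Angptl4 was lost at 6 h and Ehhadh at 24 h. In the cold, Fgf21 left out, 4 rose (Ehhadh, Acot2, Ucp3 and Plin5) and 1 fell in CTRL mice, against 3 that rose (Ehhadh, Ucp3 and Plin5) and 2 that fell (Pdk4 and Angptl4) with total counts. In BATKO mice 3 rose (Ehhadh, Acot2 and Plin5) and the same 2 fell with total counts. Plin5, a lipid droplet protein, rose by 2.28 in CTRL and 1.60 in BATKO mice, and Angptl4 fell in both (-2.06 and -2.10). Fgf21 held at most 3 counts in any mouse at 30 °C and passed the filter through the cold groups, so it is not counted and no fold is given.

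Of 7 other nuclear genes of mitochondrial metabolism, Idh3a and Uqcrc1 rose at 6 h of TH (with Cox4i1 under total counts), Idh3a at 12 h (0.74), and Idh3a, Cs, Cox4i1 and Uqcrc1 rose at 24 h. In the cold all 7 rose in CTRL mice and 5 in BATKO mice (Idh3a, Sdha, Ndufs1, Atp5a1 and Uqcrc1), but with total counts Idh3a alone was called in each, and Ndufs1 turned its sign in CTRL mice. On HFD in CTRL mice Idh3a rose with TMM alone. After TH in BATKO mice 0 genes of all these lists were called by edgeR. The TH response differed between genotypes, with TMM as with total counts, also for Slc22a5, Acsl1, Acot2, Ucp3 and Idh3a, and with TMM alone for Acad11 and Acacb.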

How the data were processed

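BAT RNA of 59 mice was sequenced in 3 experiments. The authors mapped reads to GRCm38 (mm10) with Bowtie, discarded those with a mapping quality under 10, and deposited raw counts per gene made with htseqcount (the submitters' processing notes name Bowtie2 version 2.3.2.2 and DESeq2). The annotation and the strand setting are not given in the sources used here. Libraries were made from Trizol-extracted RNA with a Lexogen total RNA SENSE kit.

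The main test was the quasi-likelihood test of edgeR 4.0.16 (R 4.3.3, with limma 3.58.1), after TMM scaling and removal of genes whose normalized counts averaged 10 or less over the mice fitted. P-values were adjusted over all genes tested by the Benjamini-Hochberg method, and genes under 0.05 were called. The WT time course was fitted over 20 mice, the BATKO response and its difference from WT over all 30 mice, and the temperature and diet experiments over their 16 and 13 mice. Standard errors were derived from the F statistic. Exonic bases came from GENCODE M21, in which 55327 of 55341 genes were found, and promoters from RefSeq. All columns were matched to mice (0 were left unmatched). Between mice of a group no library was a copy of another (lowest chi-square per degree of freedom 5.00). The 10 genes and the lists were chosen with earlier results of these data known. All members were named, and of each list the 2 genes with the smallest adjusted p-value and every gene in a count of 5 or fewer, with further examples chosen after their values were seen. DESeq2 1.42.0, other scalings, filters, fits and mice left out were tried as alternatives.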

Additional observations from a re-analysis of the deposited data

Results flagged for a closer look

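In 7 of the 120 groups of 4 or 5 mice examined for the 10 genes, 1 mouse stood far from the rest of its group, judged by its gap to the nearest mouse over the range of the group (Dixon's ratio); chance alone would give about 6. For Cpt1a in WT PTU mice the ratio was 0.890 (mouse B2, 6.98 CPM, nearest 7.35 CPM), in a group of narrow range. For Cpt1b in WT PTU mice it was 0.911 (B5, 7.30 CPM, nearest 4.56 CPM). At 6 h of TH it was 0.970 for Cpt2 (B13, 1111 CPM, nearest 1425 CPM) and 0.851 for Acaa2 (B17, 1186 CPM, nearest 984 CPM). In CTRL mice at 30 °C it was 0.8292 for Cpt1a (mouse 19, 27.7 CPM, nearest 15.0 CPM), 0.907 for Cpt1b (mouse 19, 0.958 CPM, nearest 2.41 CPM) and 0.951 for Acaa2 (mouse 22, 2124 CPM, nearest 1652 CPM). CTRL mouse 19 was thus apart for both CPT1 isoforms, in opposite directions.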

How the results depend on the processing

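Of 143 counts of called members recomputed under alternatives, 129 stayed the same within 1.5 times, and of 159 single calls recomputed 145 were kept, 14 were lost and 0 changed sign. The first score compares only how many members were called, not which ones or their sign. Most comparisons had 0 calls in the main fit. At 24 h of TH, Acadm lower and Slc25a20 higher with total counts scored the same as Acadl and Acadm lower with TMM. At 6 h of TH, against 0 calls, there was 1 with RLE scaling, 1 with a mean count above 50, 1 with DESeq2 (Acadvl each time) and 2 with total counts (Cpt2 and Acadvl). Total counts, added after seeing the data, gave 1 at 12 h of TH and 5 in cold BATKO mice. From 6 to 12 h 0 were called with all 30 mice or with only the groups compared. DESeq2 gave 1 from 12 to 24 h, 2 for the difference in cold response, and on HFD 1 in CTRL and 2 in BATKO mice, where fits without a filter gave 1 each. With 1 mouse left out, the calls ranged from 0 to 1 at 6 h, 1 to 2 at 12 h, 0 to 1 from 6 to 12 h, 0 to 2 from 12 to 24 h, 0 to 1 for the difference in TH response, 0 to 1 between genotypes at 4 °C, 0 to 2 for the difference in cold response and 0 to 1 on HFD in CTRL mice. The causes were not tested. Over all genes, HFD called 509 in CTRL mice, 1280 without a filter and 872 with DESeq2, and 9, 336 and 266 in BATKO mice; genotypes gave 0, 290 and 31 on chow and 0, 59 and 12 on HFD, and 1 against 8 with DESeq2 at 30 °C. No paired analysis was possible because mouse numbers that recur between groups belong to different mice. Counts were lowest for Cpt1b (9 to 117 per mouse) and Cpt1a (54 to 347), which limits their precision.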

Other observations

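To describe which genes had a pattern most like that of the 10 members, each of 12251 genes was correlated with the mean pattern of the members over the mice of each experiment, and genes were ranked by the lowest of the 3 correlations. Coq9, needed for coenzyme Q synthesis, ranked highest at 0.755, followed by Rmdn3 (0.744), Spg7 (0.708), the ATP synthase subunit gene Atp5b (0.706) and Plin5 (0.688), over 30, 16 and 13 mice. These values are descriptions, over mice that share library size and scaling and that include the group differences. After subtraction of the group means, the correlations in the temperature experiment were -0.04 for Coq9, 0.54 for Rmdn3, 0.01 for Spg7, 0.48 for Atp5b and 0.63 for Plin5, against 0.63 to 0.90 in the TH and 0.60 to 0.88 in the diet experiment.

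Within the groups of the TH experiment, Cpt2 and Hadha had a correlation of log2 levels of 0.84 over 30 mice, 0.80 within the groups of the diet experiment over 13 mice and 0.44 within those of the temperature experiment over 16 mice. The ratio of Acadm to Acadl was 0.616 to 0.690 in cold CTRL mice and 0.764 to 0.851 in cold BATKO mice, without overlap, whereas at 30 °C it was 0.641 to 0.657 in CTRL and 0.596 to 0.688 in BATKO mice. That difference was not tested.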
